A study of Mus musculus with 6 samples.

Results

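Hemoglobin and red cell transcripts were followed in RNA of the mouse medial ganglionic eminence at embryonic day 12.5 (MGE, a ventral forebrain source of cortical interneurons). The set holds 9 genes, found by gene symbol among the 34745 genes of the deposited table: the embryonic globins Hba-x, Hbb-y and Hbb-bh1, the adult globins Hba-a1, Hba-a2, Hbb-bs and Hbb-bt, and the erythroid genes Alas2 and Slc4a1. The 3 Sp9 null libraries came from Sp9-/- embryos, which lack a zinc finger transcription factor of the ventral forebrain, and the 3 wild type libraries from littermates. All embryos were of mixed C57BL/6J, 129S6 and CD1 descent. The labels name no transgene, and they do not say how many embryos or litters a library holds, so the p-values measure the spread between libraries, which may be partly technical.

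Vertebrate hemoglobin joins a pair of alpha-like and a pair of beta-like chains around heme. In the mouse the first red cells arise in the yolk sac and make the embryonic chains, encoded by Hba-x (zeta), Hbb-y (epsilon-y) and Hbb-bh1 (beta-h1), and Hbb-bh1 is known to give way to Hbb-y as these cells mature. Red cells from the fetal liver use the adult chains, from Hba-a1 and Hba-a2 (alpha) and Hbb-bs and Hbb-bt (beta), and the adult beta genes are known to differ between inbred strains. Alas2 encodes the erythroid enzyme for the first step of heme synthesis, and Slc4a1 encodes band 3, the anion exchanger of the red cell membrane. Neural tissue is not a known main source of these chains, and dissected embryonic brain contains blood vessels. In bulk RNA, fewer red cells and less globin RNA per red cell cannot be told apart.

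The alpha-like genes lie together on chromosome 11 and the beta-like genes on chromosome 7, and the promoters show what the members share in sequence. The 120 bases before the RefSeq start site (GRCm38.p6) are given 5′ to 3′ for the globins that the results turn on and for Alas2, which shared the library pattern described below. RefSeq promoters were matched for 7 of the 9 genes, and Hbb-bh1 and Slc4a1 were not matched. Capitals mark the motif CACCC and the motif CCAAT, each also as its reverse complement, and the motif TATAA or the variant ATAAA on the sense strand. The TATAA and ATAAA matches overlap in Hba-x and Hbb-bt.
Hba-x (chr11:32276480-32276599, + strand): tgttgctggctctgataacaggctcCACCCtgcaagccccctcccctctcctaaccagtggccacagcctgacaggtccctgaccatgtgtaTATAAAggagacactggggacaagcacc
Hba-a1 (chr11:32283552-32283671, + strand): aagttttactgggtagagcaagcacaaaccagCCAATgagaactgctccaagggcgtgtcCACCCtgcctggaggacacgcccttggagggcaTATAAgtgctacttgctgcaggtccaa
Hbb-y (chr7:103853208-103853327, - strand): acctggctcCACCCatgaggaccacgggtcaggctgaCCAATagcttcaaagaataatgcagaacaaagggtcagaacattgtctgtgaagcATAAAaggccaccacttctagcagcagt
Hbb-bs (chr7:103827929-103828048, - strand): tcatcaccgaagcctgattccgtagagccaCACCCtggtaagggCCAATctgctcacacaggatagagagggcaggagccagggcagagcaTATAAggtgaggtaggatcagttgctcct
Hbb-bt (chr7:103813924-103814043, - strand): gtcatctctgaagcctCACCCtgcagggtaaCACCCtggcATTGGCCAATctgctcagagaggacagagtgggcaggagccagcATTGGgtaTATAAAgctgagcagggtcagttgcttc
Alas2 (chrX:150547297-150547416, + strand): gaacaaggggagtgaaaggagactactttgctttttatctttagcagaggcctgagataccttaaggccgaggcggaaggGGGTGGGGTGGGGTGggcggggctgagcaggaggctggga
CACCC, the core of the site that KLF and Sp factors can bind, was present in all 7 matched promoters, against 31.7% of 32851 promoter windows of the same length searched on both strands. In Hba-x it lay at -95 to -91 from the start and in Hbb-y at -111 to -107. CCAAT was present in 5 of the 7, at -83 to -79 in Hbb-y and -76 to -72 in Hbb-bs, and was not found in Hba-x or Alas2 (21.3% of all windows). TATAA or ATAAA was found in the 6 matched globin promoters and not in Alas2, against 16.2% of all windows. GATAA, the core of the GATA factor site, was found on either strand in Hba-x and Alas2 (10.5% of all windows), and the GC box CCGCCC in Alas2 (26.5%). These matches describe the letters and were not tested as binding sites. The Hba-a1 and Hba-a2 promoters were identical over the 297 bases compared, and the windows of Hba-x, Hba-a1 and Hbb-bs lie inside the spans that the deposited table gives for these genes.

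The libraries held 6826447, 10979280 and 9430442 counts in Sp9 null replicates 1, 2 and 3 and 9536050, 10914147 and 9917457 counts in wild type replicates 1, 2 and 3. Sp9 itself had 89 to 118 counts in null and 1870 to 2700 counts in wild type libraries, which matched the labels in all 6. MGE markers were abundant, with Nkx2-1, the regional transcription factor, at 895 to 945 CPM (counts scaled to the library total) in null and 799.7 to 927 CPM in wild type libraries. Replicate 2 of both genotypes stood apart along the first principal component (51.8% of variance). A list of 11 stomach and pancreas genes, known from earlier results on these libraries, summed to 0 CPM in every null and to 101 to 131 CPM in the wild type libraries, and its part in the globin values was not tested. Genotypes were compared with the edgeR quasi-likelihood test over 14929 genes, and a gene was called at a Benjamini-Hochberg adjusted p under 0.05. The replicate numbers were taken to pair the libraries, so a fit with the number as a block is given where it changes a call.

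Globin transcripts took a small and similar part of the RNA in both genotypes. The 7 globin genes together took 0.0817%, 0.1255% and 0.0885% of the counts in null replicates 1, 2 and 3, against 0.0807%, 0.123% and 0.0928% in wild type replicates 1, 2 and 3. Replicate 2 was the highest of its genotype in both, and the ranges overlapped nearly in full. The mean was 0.0986% ± 0.0236 in null and 0.0989% ± 0.0218 in wild type libraries (SD, n = 3 each). The 95% Wilson intervals, which cover counting error only, were narrow beside the spread between replicates, for example 0.1234% to 0.1276% in null replicate 2. No test was made of this sum.

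Hbb-y dominated the globin RNA. Levels between genes were compared as CPM per kilobase of the longest protein-coding GENCODE M21 transcript. Hbb-y was at 816 ± 158 in null and 896 ± 175 CPM per kilobase in wild type libraries (SD, n = 3 each), above every other member in each library. Hba-x followed, at 272 ± 105 in null and 207 ± 69.9 CPM per kilobase in wild type libraries. Hba-a1 came next, at 173 ± 35.8 in null and 176 ± 37.3 CPM per kilobase in wild type libraries. The ranges of Hba-x and Hba-a1 overlapped, at 181 to 387 and 133 to 203 CPM per kilobase in null libraries and 145 to 282 and 147 to 218 in wild type libraries. Within a library Hba-x was the higher except in wild type replicate 1, at 145 against 147 CPM per kilobase. By deposited FPKM Hba-x was the higher in every library. Hbb-bs, Hbb-bt and Hbb-bh1 had null means of 48.4 to 67.1 and wild type means of 54.2 to 66.3 CPM per kilobase, within each other's spread, with Hba-a2 next. Alas2 (7.74 ± 1.98 in null and 7.04 ± 1.57 CPM per kilobase in wild type libraries) and Slc4a1 (5.26 ± 2.22 in null and 5.16 ± 0.405 in wild type libraries) were lowest. The order depends on the length used. The deposited FPKM implied a length of 1734 bases for Hbb-bs and 703 for Hbb-bt, against transcripts of 628 and 703 bases, so the deposited FPKM of Hbb-bs, 13.5 to 27.3, lay below that of Hbb-bt, 32.1 to 77.7, although their counts were nearly equal.

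**Figure D1:**
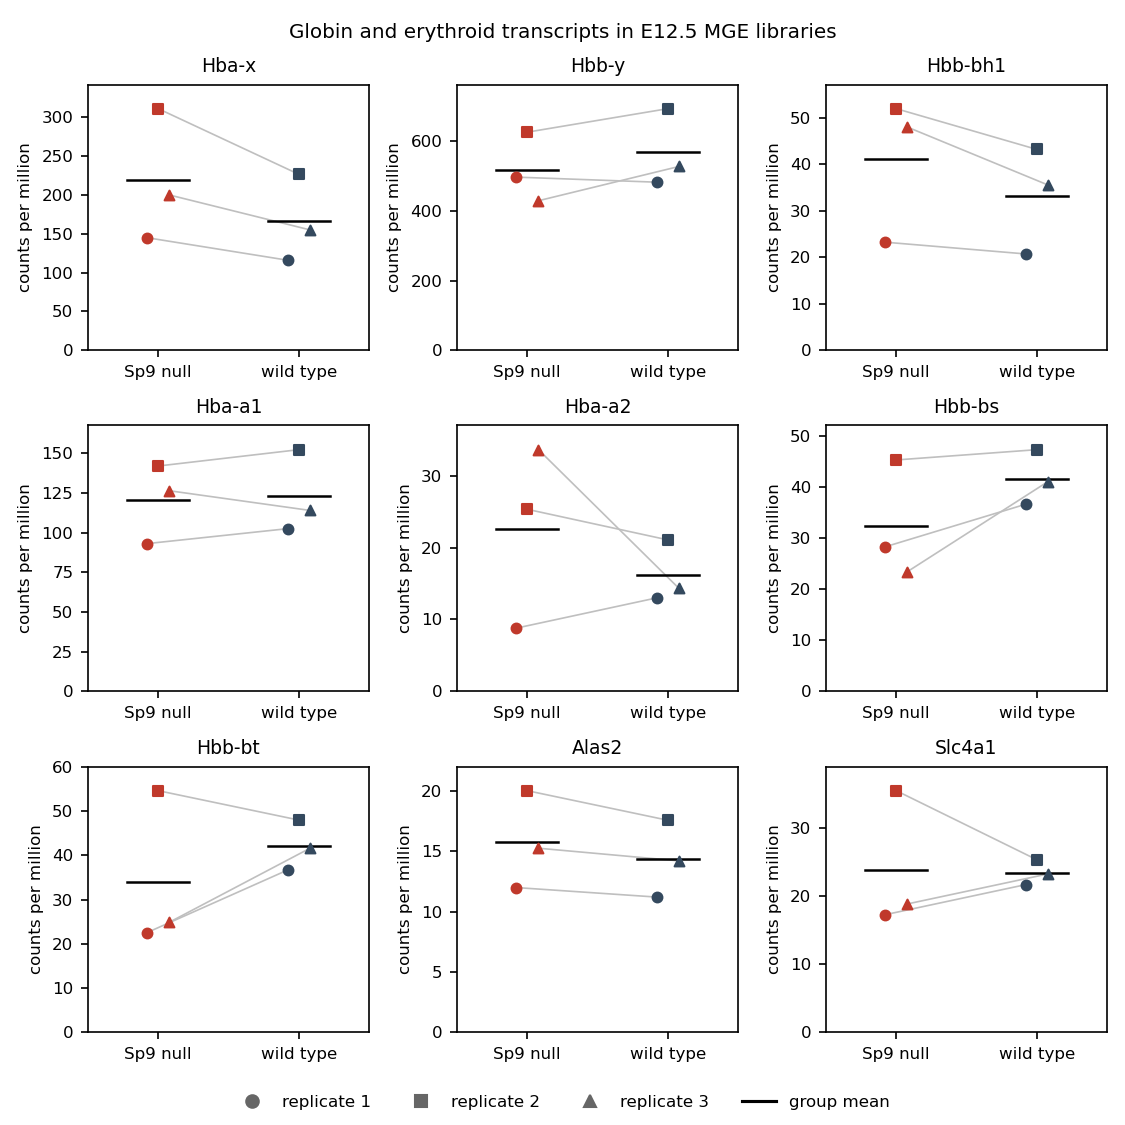
CPM of the 9 genes in each library, with Sp9 null left and wild type right; symbols give the replicate number, grey lines join equal numbers and black bars are group means. Hba-x, Hbb-bh1 and Alas2 were higher in the null library of every equal-numbered pair, and replicate 2 was the highest library of its genotype in 8 of the 9 genes.

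Without the block, 0 of the 9 genes were called (edgeR), where 0.147% of all tested genes were, and 0 had an unadjusted p under 0.05. DESeq2 and limma on log2 FPKM without the block also called 0. With the block 2 were called, Hba-x and Hbb-bh1, both higher in the null libraries, where 4.0% of all tested genes were called, 2.22% as higher and 1.78% as lower. The 9 genes had a median log2 fold change of 0.06 without and 0.02 with the block, and all tested genes of 0.00 and -0.01. The null and wild type values overlapped in all 9, while 13.0% of all tested genes had groups that did not overlap.

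Among the embryonic genes, the alpha-like Hba-x was called higher in null libraries by the blocked fit, while the beta-like Hbb-y, the most abundant, passed in neither fit. Hba-x (ENSMUSG00000055609, chromosome 11, 32276400 to 32278116, GRCm38) had 988, 3407 and 1881 counts in null replicates 1, 2 and 3, against 1104, 2468 and 1534 in wild type replicates 1, 2 and 3. This is 145, 310.3 and 199.5 CPM in null and 116, 226 and 155 CPM in wild type libraries. The groups overlapped, but each null library exceeded the wild type library of its number, by 0.32, 0.46 and 0.37 on the log2 scale for numbers 1, 2 and 3. Of all tested genes 15.7% were higher in the null library of all 3 pairs. The mean was 218 ± 84.4 CPM in null and 165.5 ± 56.0 CPM in wild type libraries (SD, n = 3 each). On the log2 scale null over wild type was 0.43 ± 0.375 (SE; edgeR adjusted p = 0.929) without the block and 0.41 (SE 0.061, edgeR adjusted p = 1.99e-05) with it. Without the block it ran from 0.071 without null replicate 2 to 0.724 without wild type replicate 2. The blocked call held without pair 1, 2 or 3 (edgeR adjusted p = 9.17e-09, 0.0339 and 0.0079) and by DESeq2 with the block (adjusted p = 0.000398). These fits all keep the pairing by equal number, which was read from the same data and told numbers 1 and 3 poorly apart. Null replicate 1, at 145 CPM, lay below wild type replicate 3, at 155 CPM. A fit with another pairing was not run.

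Hbb-bh1 (ENSMUSG00000052217, chromosome 7, 103841636 to 103843164) had 159, 571 and 453 counts in null replicates 1, 2 and 3, against 198, 472 and 353 in wild type replicates 1, 2 and 3. Scaled to depth, these were 23.3, 52.0 and 48.0 CPM in null and 20.8, 43.2 and 35.6 CPM in wild type libraries, and replicate 1 of both genotypes was the lowest. The groups overlapped, and all 3 pairs had the null library higher, by 0.17, 0.27 and 0.43 on the log2 scale. Null over wild type on the log2 scale was 0.34 ± 0.39 (SE; edgeR adjusted p = 0.951) without the block and 0.33 (SE 0.095, edgeR adjusted p = 0.0426) with it. Without the block it ran from 0.094 without wild type replicate 1 to 0.625 without null replicate 1. The blocked call was lost without pair 2 (edgeR adjusted p = 0.376), without pair 3 (0.485) and in the blocked DESeq2 fit (adjusted p = 0.76).

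Hbb-y (ENSMUSG00000052187, chromosome 7, 103851745 to 103853240) had 3388, 6862 and 4043 counts in null replicates 1, 2 and 3, against 4594, 7556 and 5225 in wild type replicates 1, 2 and 3. The levels were 496, 625 and 429 CPM in null and 482, 692 and 527 CPM in wild type libraries. The groups overlapped, and the null library was the higher one in pair 1 and the lower one in pairs 2 and 3. On the log2 scale null over wild type was -0.11 ± 0.184 (SE; edgeR adjusted p = 0.973), and -0.11 (SE 0.062, edgeR adjusted p = 0.357) with the block. Without pair 1 the blocked fit called it lower in null libraries, with a log2 fold change of -0.19 (edgeR adjusted p = 0.0242).

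The make-up of the embryonic globins varied between the libraries. The count ratio of Hba-x to Hbb-y was 0.292, 0.4965 and 0.465 in null replicates 1, 2 and 3, against 0.240, 0.327 and 0.294 in wild type replicates 1, 2 and 3. Null replicates 2 and 3 lay above all wild type libraries, and null replicate 1 lay within their range. The ratio of Hbb-bh1 to Hbb-y was 0.0469, 0.0832 and 0.112 in null and 0.0431, 0.0625 and 0.0676 in wild type libraries. Both ratios were looked at after the member values had been seen, so they carry no test. Summed over embryonic and adult genes, alpha-like counts were 0.4325, 0.615 and 0.685 of beta-like counts in null replicates 1, 2 and 3 and 0.402, 0.481 and 0.439 in wild type replicates 1, 2 and 3.

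**Figure D2:**
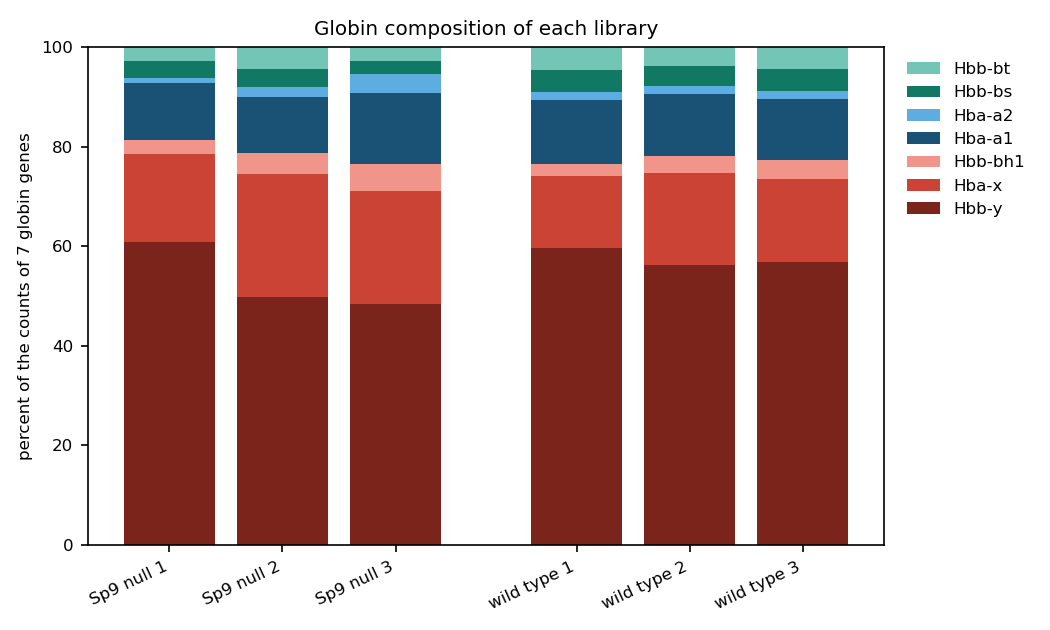
Share of each globin gene in the summed counts of the 7 globin genes (percent), one bar per library, Sp9 null left and wild type right. Hbb-y took 48.5% to 60.7% in null and 56.3% to 59.7% in wild type libraries, and Hba-x 17.7% to 24.7% in null and 14.3% to 18.4% in wild type libraries.

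The adult alpha genes did not pass in either fit. Hba-a1 (ENSMUSG00000069919, chromosome 11, 32283511 to 32284465) had 636, 1560 and 1193 counts in null replicates 1, 2 and 3, against 978, 1663 and 1132 in wild type replicates 1, 2 and 3. It averaged 121 ± 24.99 CPM in null and 123 ± 26.1 CPM in wild type libraries (SD, n = 3 each), with a log2 fold change of -0.002 (edgeR, SE 0.206, adjusted p = 1.0). The blocked SE was 0.067, with a log2 fold change of -0.006. Hba-a2 (ENSMUSG00000069917, chromosome 11, 32296489 to 32297298) had 60, 278 and 317 counts in null and 124, 230 and 142 in wild type replicates 1, 2 and 3. It was at 8.79, 25.3 and 33.6 CPM in null and 13.0, 21.1 and 14.3 CPM in wild type libraries, so the null libraries held both the lowest and the highest values. Its log2 fold change was 0.52 (edgeR, SE 0.482, adjusted p = 0.932), and 0.45 (SE 0.443, edgeR adjusted p = 0.72) with the block. The value rested on single pairs: with the block it was 0.76 and called without pair 1 (edgeR adjusted p = 0.017), and -0.03 without pair 3 (edgeR adjusted p = 0.98).

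The adult beta genes were lower in most null libraries without passing. Hbb-bs (ENSMUSG00000052305, chromosome 7, 103826534 to 103828096) had 193, 497 and 221 counts in null replicates 1, 2 and 3, against 349, 516 and 407 in wild type replicates 1, 2 and 3. It was at 28.3, 45.3 and 23.4 CPM in null and 36.6, 47.3 and 41.0 CPM in wild type libraries, lower in the null library of all 3 pairs, as 22.6% of all tested genes were. Null over wild type on the log2 scale was -0.335 ± 0.251 (SE; edgeR adjusted p = 0.909), and -0.37 (SE 0.116, edgeR adjusted p = 0.0846) with the block. Hbb-bt (ENSMUSG00000073940, chromosome 7, 103812524 to 103813996) had 154, 600 and 235 counts in null replicates 1, 2 and 3, against 350, 524 and 413 in wild type replicates 1, 2 and 3. At 22.6, 54.65 and 24.9 CPM in null and 36.7, 48.0 and 41.6 CPM in wild type libraries, null replicates 1 and 3 lay below and null replicate 2 above all wild type libraries. On the log2 scale null over wild type was -0.27 ± 0.365 (SE; edgeR adjusted p = 0.958), and -0.34 (SE 0.253, edgeR adjusted p = 0.609) with the block. The replicate 2 libraries decided this value: without both replicate 2 libraries Hbb-bt was called, at -0.70 (edgeR adjusted p = 0.033), and with the block and without pair 2 at -0.71 (edgeR adjusted p = 0.0133).

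**Figure D3:**
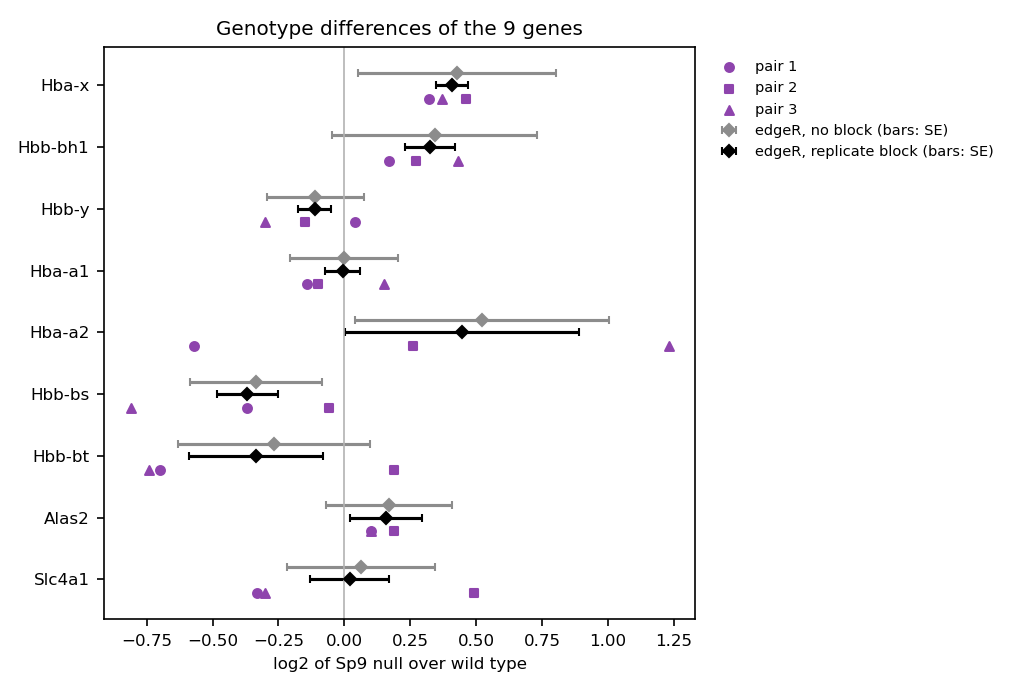
Log2 of Sp9 null over wild type for the 9 genes (horizontal axis): grey and black diamonds are the edgeR estimates without and with the replicate block, bars are standard errors, and purple symbols are the differences within each equal-numbered pair. Hba-x had 3 close pair values, 0.32 to 0.46, while those of Hba-a2 ran from -0.57 to 1.23.

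Each adult pair consists of near-identical copies, so its counts cannot be assigned to either copy with certainty. Of all 50-base stretches of the longest Hba-a2 transcript 86.9% also occur in that of Hba-a1, and 65.8% of those of Hbb-bs in that of Hbb-bt. In the wild type libraries the copies divided their counts in nearly the same proportion in every library, and in the null libraries the proportion varied. Hbb-bt took 44.4%, 54.7% and 51.5% of the adult beta counts in null replicates 1, 2 and 3, against 50.1%, 50.4% and 50.4% in wild type replicates 1, 2 and 3. The SD was 5.28 percentage points in null and 0.176 in wild type libraries (n = 3 each). The 95% Wilson intervals of null replicates 1 and 2, 39.2% to 49.6% and 51.7% to 57.6%, did not overlap each other. Hba-a2 took 8.62%, 15.1% and 21.0% of the adult alpha counts in null replicates 1, 2 and 3, against 11.25%, 12.15% and 11.15% in wild type replicates 1, 2 and 3. The intervals of null replicates 1, 2 and 3, 6.76% to 10.9%, 13.6% to 16.8% and 19.0% to 23.1%, did not overlap each other, while those of the wild type libraries all did. These intervals cover counting error only, and not the uncertain assignment of reads to a copy. The difference in spread between the genotypes was not tested.

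**Figure D4:**
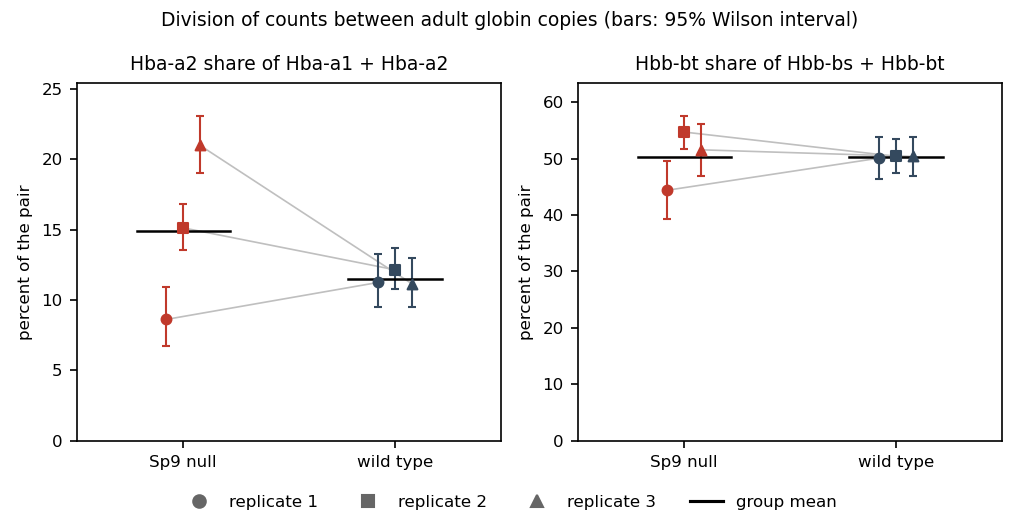
Share of Hba-a2 in the adult alpha counts and of Hbb-bt in the adult beta counts (percent) per library, Sp9 null left and wild type right; thin bars are 95% Wilson intervals and black bars are group means. The wild type libraries sat within 11.15% to 12.15% and 50.1% to 50.4%, and the null libraries ran from 8.62% to 21.0% and from 44.4% to 54.7%.

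The embryonic to adult ratio compares the summed counts of the embryonic and the adult globin genes. Because it is taken within a library it does not depend on depth. Embryonic counts were 4.35, 3.69 and 3.24 times adult counts in null replicates 1, 2 and 3, against 3.27, 3.58 and 3.396 times in wild type replicates 1, 2 and 3. Null replicate 1 was the highest and null replicate 3 the lowest of all 6, so the wild type range lay inside the null range. The mean was 3.76 ± 0.555 in null and 3.42 ± 0.153 in wild type libraries (SD, n = 3 each), a log2 difference of 0.13 (two-sided exact permutation p = 0.5, where 3 against 3 libraries allow no p below 0.1). The difference was 0.02 without null replicate 1, 0.231 without null replicate 3 and 0.43 with Hba-a1 and Hba-a2 left out of the adult sum. Embryonic genes thus made up 81.3%, 78.7% and 76.4% of the globin counts in null and 76.6%, 78.2% and 77.25% in wild type replicates 1, 2 and 3. The 95% Wilson interval of null replicate 1, 80.3% to 82.3%, lay above those of the other 5 libraries. These intervals cover counting error only, and not the spread between libraries.

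Split by cluster, both ratios had higher means in null libraries, with groups that overlapped. Hba-x over Hba-a1 plus Hba-a2 was 1.42, 1.85 and 1.25 in null replicates 1, 2 and 3, against 1.002, 1.304 and 1.204 in wild type replicates 1, 2 and 3. Only null replicate 3 lay within the wild type range. The log2 difference was 0.35, and all 3 pairs had the null library higher (two-sided exact permutation p = 0.2). It was 0.193 without null replicate 2. Hbb-y plus Hbb-bh1 over Hbb-bs plus Hbb-bt was 10.2, 6.78 and 9.86 in null replicates 1, 2 and 3, against 6.86, 7.72 and 6.802 in wild type replicates 1, 2 and 3. Null replicates 1 and 3 lay above all wild type libraries and null replicate 2 just below them, for a log2 difference of 0.31 (two-sided exact permutation p = 0.4). It was 0.2 without null replicate 1, 0.497 without null replicate 2 and 0.556 without both replicate 2 libraries. Adjusted over the 3 ratios by Benjamini-Hochberg, each p was 0.5.

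**Figure D5:**
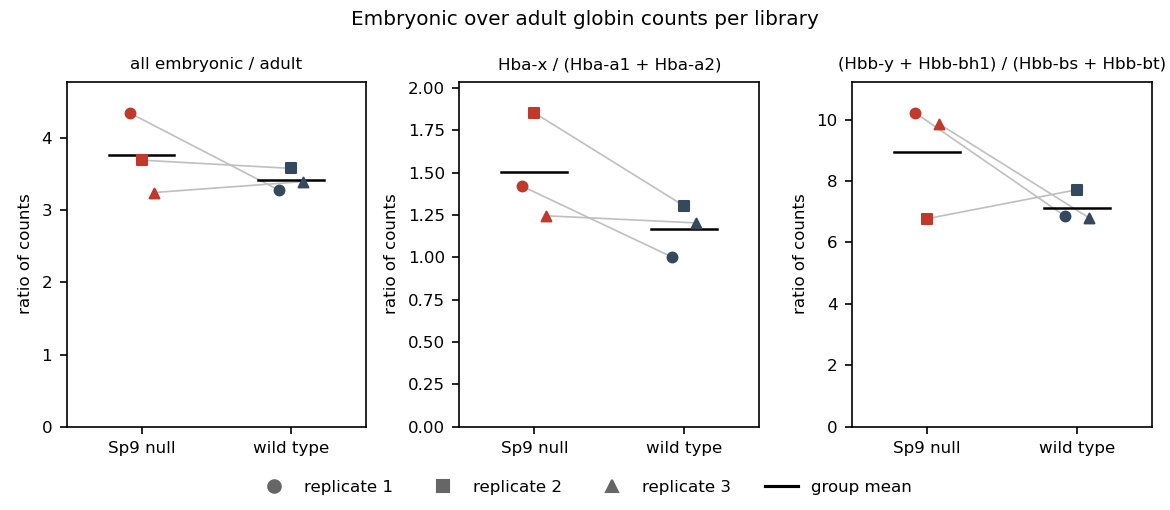
Embryonic over adult globin counts in each library for all globins (left), the alpha cluster (middle) and the beta cluster (right), Sp9 null left and wild type right in each panel; black bars are group means and grey lines join equal replicate numbers. The groups overlapped in all 3 panels, and the null values spread more widely, with SDs of 0.555, 0.313 and 1.89 against 0.153, 0.154 and 0.515 in wild type.

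Alas2 and Slc4a1 did not pass in either fit. Alas2 (ENSMUSG00000025270, X chromosome, 150547375 to 150570638) had 82, 220 and 144 counts in null replicates 1, 2 and 3, against 107, 192 and 141 in wild type replicates 1, 2 and 3. At 12.01, 20.04 and 15.3 CPM in null and 11.2, 17.6 and 14.2 CPM in wild type libraries, it was slightly higher in the null library of each pair. Null over wild type on the log2 scale was 0.17 ± 0.238 (SE; edgeR adjusted p = 0.96), and 0.16 (SE 0.137, edgeR adjusted p = 0.6) with the block. Alas2 overlaps Apex2, a DNA repair gene with 1341 counts in all, and strand is not stated. Slc4a1 (ENSMUSG00000006574, chromosome 11, 102348824 to 102366203) had 118, 390 and 178 counts in null replicates 1, 2 and 3, against 207, 277 and 231 in wild type replicates 1, 2 and 3. Its CPM were 17.3, 35.5 and 18.9 in null and 21.7, 25.4 and 23.3 in wild type libraries, so null replicate 2 was the highest and the other null libraries the lowest of all. On the log2 scale null over wild type was 0.06 ± 0.282 (SE; edgeR adjusted p = 0.997), and it was -0.361 without null replicate 2.

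Much of the variation among the 9 genes ran with the replicate number. In 8 of the 9, all but Hba-a2, replicate 2 was the highest library of both genotypes, a pattern that 22.5% of all tested genes had. Against the mean of replicates 1 and 3, replicate 2 stood higher by a median log2 difference of 0.67 in null and 0.48 in wild type libraries, where the median of all tested genes was 0.01 and 0.00. The replicate 2 libraries were also low in a list of neighbouring tissue markers (Tbr1, Neurod6, Emx1, Otp and Pax6). It summed to 2.82 CPM in null and 2.66 CPM in wild type replicate 2. The sums were 31.5 and 52.7 CPM in the other null and 21.4 and 29.2 CPM in the other wild type libraries. Most of these came from Tbr1, at 23.3 and 41.9 CPM in null and 14.8 and 20.2 CPM in wild type replicates 1 and 3. Neurod6 and Emx1 had 2 and 14 counts over all 6 libraries. The part of these genes in the globin levels was not tested. Some red cell membrane genes stood high in null replicate 2, and others stood low. Slc4a1 exceeded the other null libraries there by 1.0 on the log2 scale, against 0.18 in wild type replicate 2. Ank1, Add2 and Dmtn, picked after their values were seen, were lowest in replicate 2 of both genotypes. They were at 10.1, 187.5 and 3.01 CPM in null replicate 2. Rhag, which encodes the Rh-associated glycoprotein and was singled out after its values were seen, had 6, 45 and 11 counts in null replicates 1, 2 and 3 and 6, 6 and 10 in wild type replicates 1, 2 and 3.

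Outside the set, the gene with the profile most like that of the summed globins was Pdlim5, which encodes a muscle and cytoskeletal scaffold protein, with a root mean square difference of 0.037 between centred log2 levels over the 6 libraries. Ccnd1, the cyclin D1 gene of dividing progenitors, followed at 0.043, then Tsen15, a tRNA splicing gene, and A430005L14Rik at 0.055 each and Siah1b, a ubiquitin ligase gene, at 0.059. Ccnd1 was at 401, 553 and 394 CPM in null replicates 1, 2 and 3, against 380.2, 560.1 and 449 CPM in wild type replicates 1 to 3. These genes share the high replicate 2 libraries with the globins. A flat profile would differ from the globins by 0.261, and 5147 of 14920 genes (34.5%) lay nearer than that. Of the members, Hbb-y, Hba-a1 and Alas2 followed the sum most closely, at 0.107, 0.114 and 0.116, and Hba-a2 least, at 0.556. Each globin is itself part of the sum, so a gene with a large share lies nearer to it by construction. Hbb-y took 48.5% to 60.7% of the sum in null and 56.3% to 59.7% in wild type libraries. Alas2 is not part of it.

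The wider red cell programme was measured with lists of heme synthesis, iron, membrane, regulator and enzyme genes. Of 10 heme synthesis genes 0 were called without the block (edgeR, DESeq2 and limma; 1 unadjusted p under 0.05 by edgeR). With the block 1 was called, Cpox, the coproporphyrinogen oxidase gene, which rose to 22.3 ± 4.08 CPM in null libraries, against 15.6 ± 1.28 CPM in wild type libraries (SD, n = 3 each; log2 fold change 0.54, SE 0.13, edgeR adjusted p = 0.0108). That call was lost when pair 2 or 3 was left out (edgeR adjusted p = 0.39 and 0.216) and in the blocked DESeq2 fit (adjusted p = 0.393). Alad and Ppox, which encode other enzymes of the heme pathway, had log2 fold changes of 0.13 and -0.07 and were called in neither fit. The list median was -0.02.

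Of 10 tested iron genes 0 were called without the block (edgeR, DESeq2 and limma; 1 unadjusted p under 0.05 by edgeR), and 1 fell with it. Ftl1, a ferritin light chain gene, was at 542 ± 68.5 CPM in null and 642 ± 19.6 CPM in wild type libraries (SD, n = 3 each), at a log2 fold change of -0.23 in the blocked fit (edgeR, SE 0.06, adjusted p = 0.0259). Leaving out pair 2 or 3 ended that call (edgeR adjusted p = 0.553 and 0.225), as did DESeq2 (adjusted p = 0.224). The transferrin receptor gene Tfrc and the ferritin heavy chain gene Fth1 had log2 fold changes of 0.05 and -0.11 and passed in neither fit. Of 14 tested red cell membrane genes 0 were called in either edgeR fit, by DESeq2 or by limma, with 1 unadjusted p under 0.05 without and 4 with the block, where 882 and 2573 of all 14929 tested genes had one. Their median log2 fold change was 0.17, and 12 of the 14 were positive, against 7301 of all 14929 genes. The most abundant, Epb41, Add2 and Mpp1, had log2 fold changes of 0.14, -0.09 and 0.33.

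Of 10 tested regulators 0 were called without the block (edgeR, DESeq2 and limma; 0 unadjusted p under 0.05 by edgeR). With the block 2 fell, namely Bcl11a, a repressor of embryonic globin genes that neurons also express, by 0.25 on the log2 scale (edgeR adjusted p = 0.0203), and Btg2, an antiproliferative gene, by 0.28 (edgeR adjusted p = 0.0281). Bcl11a was at 198, 165 and 256 CPM in null replicates 1, 2 and 3, against 258, 212 and 268 CPM in wild type replicates 1 to 3. Both calls were lost without pair 2, that of Bcl11a also without pair 1 and that of Btg2 also without pair 3. DESeq2 with the block called neither (adjusted p = 0.375 for Bcl11a and 0.685 for Btg2). Sox6, another repressor of embryonic globin in red cells and a factor of MGE interneurons, had a log2 fold change of 0.17 and was called in neither fit. The defining erythroid regulators were scarce, with 26 counts of Gata1 and 37 of Klf1 over all 6 libraries, and did not pass the expression filter. The list of red cell enzyme and clearance genes had 10 tested members, among them the regulator Tal1, which the regulator list also holds. Of these 0 were called without the block (edgeR, DESeq2 and limma; 1 unadjusted p under 0.05 by edgeR). With the block 2 fell, the peroxide-removing genes Prdx2, by 0.20 (edgeR adjusted p = 0.0426), and Cat, by 0.30 (edgeR adjusted p = 0.0463), and DESeq2 with the block called neither, and leaving out pair 3 ended both calls. Bnip3l, the mitophagy receptor gene, had -0.04. Many genes of these lists are also expressed by neural cells, so their levels are not a measure of red cells alone. The minor globins Hbq1a, Hbq1b and Hbb-bh2 had 5, 22 and 5 counts over all 6 libraries.

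Other cells of the blood and vessels were compared beside the globins. The 13 endothelial markers, led by Kdr, Pecam1 and Cdh5, summed to 188 to 209 CPM in null and 195 to 214 CPM in wild type libraries, with 0 called by either edgeR fit, DESeq2 or limma and 0 unadjusted p under 0.05 in either edgeR fit. The 7 pericyte markers, led by Rgs5, Pdgfrb and Abcc9, summed to 60.3 to 78.5 CPM in null and 68.8 to 74.9 CPM in wild type libraries, with 0 called by the same tools and 0 unadjusted p under 0.05. The endothelial sum was 208.6, 209.4 and 187.7 CPM in null and 200.8, 213.7 and 195.1 CPM in wild type replicates 1, 2 and 3. Replicate 2 was thus the highest of both genotypes in the endothelial sum, as in the globin sum. Null replicates 1 and 2 were nearly equal in the endothelial sum and further apart in the globin sum. The part of vessel content in the globin values was not tested. The pericyte sum was highest in replicate 1 of both genotypes. The 10 platelet markers, with Gp1bb, Itga2b and Itgb3 the most abundant, summed to 8.93 to 11.2 CPM in null and 9.44 to 10.7 CPM in wild type libraries. The 10 leukocyte markers summed to 19.8 to 23.15 CPM in null and 27.3 to 31.0 CPM in wild type libraries, mostly from Coro1a, and 3 of them, Elane, Cpa3 and Cma1, had 0 counts in all 6 libraries. The other neutrophil and myeloid genes of that list, S100a8, S100a9, Mpo and Lyz2, had 2, 7, 10 and 25 counts over all 6. Those of S100a8 and S100a9, at most 3 per library, were all in null libraries. Mpo had 0, 2 and 1 counts in null and 0, 2 and 5 in wild type replicates 1, 2 and 3. Lyz2 had 1, 8 and 1 counts in null and 3, 9 and 3 in wild type replicates 1, 2 and 3. The 8 mesenchyme markers summed to 41.2 to 47.2 CPM in null and 45.45 to 52.0 CPM in wild type libraries. Of these, Pdgfra, a growth factor receptor gene also used by glial progenitors, fell with the block, by 0.45 on the log2 scale (edgeR adjusted p = 0.0195). That call ended without pair 2 or 3 (edgeR adjusted p = 0.4 and 0.134) and in the blocked DESeq2 fit (adjusted p = 0.569). The 12 microglia and macrophage markers summed to 24.9 to 36.2 CPM in null and 55.2 to 60.8 CPM in wild type libraries, so the groups did not overlap. Of the 8 tested, 6 fell with the block and 0 without it (edgeR; 7 unadjusted p under 0.05 without it, and 3 called by DESeq2), Csf1r to 6.45 ± 1.40 CPM in null libraries, against 13.9 ± 0.36 CPM in wild type libraries (SD, n = 3 each; blocked log2 fold change -1.11, SE 0.17, edgeR adjusted p = 3.35e-05). Whichever pair was left out, the blocked fit still called Csf1r, Cx3cr1 and P2ry12, while Aif1 and C1qb each lost their call without pair 2. The summed globins, by contrast, overlapped between the genotypes nearly in full. The part of these cells in the Hba-x and Hbb-bh1 differences was not tested.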

How the data were processed

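RNA-seq libraries of the MGE, 3 Sp9 null and 3 wild type, were analysed from 1 deposited table, which per the file headers gives whole-number counts and FPKM per gene and library. TopHat, Cufflinks 2.1.1 and the build GRCm38.p4 are listed in the submitters' processing notes. The counting program and the strandedness of the reads are not given in the sources used here. Deposited FPKM values were counts divided by 1 fixed length per gene and the library total (relative tolerance 0.001) for 21180 of 21180 genes counted in 2 or more libraries, so they are the same measurements. The number of unused sample columns was 0. Total counts were 6826447 to 10979280 per library, where a floor of 3 counts corresponds to 0.273 to 0.439 CPM.

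Counts were tested with edgeR 4.0.16 in R 4.3.3 (quasi-likelihood test, TMM scaling, filterByExpr, robust dispersions, two-sided) over 14929 genes, with Benjamini-Hochberg adjustment over all of them. The analysis was tested on simulated data. Standard errors were taken as the absolute log2 fold change divided by the root of the F statistic. Ratios were tested by exact permutation over all regroupings of the 6 libraries, and Wilson intervals came from scipy 1.17.1. Alternatives were DESeq2 1.42.0, limma 3.58.1 on log2(FPKM + 0.1) and log2(FPKM + 1), other scalings, no filter, each library left out and the replicate block. Equal-numbered libraries deviated together from their genotype means (correlations of 0.336, 0.729 and 0.535 for numbers 1, 2 and 3). The numbers were therefore taken to pair them. Null 3 with wild type 1 (0.354) and null 1 with wild type 3 (0.23) also correlated, so numbers 1 and 3 were poorly told apart. The pairing was read from the same data that the blocked fits use. The labels do not say what a number marks. The members and lists were chosen with earlier results of these data known. Text names the members, list genes called in either fit, the 3 most abundant genes of a list and the 5 genes with the most similar profile; any other gene is said to be chosen after its values were seen or is a defining marker. Some genes that this rule names are not reported here.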

Additional observations from a re-analysis of the deposited data

How the results depend on the processing

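Without the replicate block 22 genes were called in all. The count was 597 with the block, 155 by DESeq2 with the block, and 126 to 1190 with the block and 1 pair left out (1190 without pair 1, 126 without pair 2 and 219 without pair 3). It was 90 by DESeq2, 40 and 38 by limma on log2(FPKM + 0.1) and log2(FPKM + 1), 65 with no expression filter, 2 to 34 with 1 library left out (2 without wild type replicate 1, 34 without null replicate 2), and 89 without both replicate 2 libraries, an alternative chosen after seeing the data. Of 171 recomputed fold changes of the 9 genes, 142 kept direction and side of the threshold, 11 kept direction and were called, and 18 changed sign, none of them a called value. The 11 calls were those of Hba-x and Hbb-bh1 under the block, Hba-a2 and Hbb-y under the block without pair 1, and Hbb-bt without pair 2 or both replicate 2 libraries. The sign changes in log2 fold change under other fits were as follows. Hba-a1 was at 0.001 by DESeq2 with the block, 0.005 by DESeq2, 0.006 with RLE scaling, 0.053 and 0.028 with the block without pair 1 or 2, 0.044 without both replicate 2 libraries, and -0.148 to 0.186 with 1 library left out. Slc4a1 was at -0.004 by DESeq2 with the block, -0.046 and -0.029 by limma with the smaller and larger pseudocount, -0.299 with the block without pair 2, -0.295 without both replicate 2 libraries, and -0.361 to 0.255 with 1 library left out. Hba-a2 was at -0.026 with the block without pair 3. With 1 library left out Hbb-y ran from -0.284 to 0.063 and Alas2 from -0.055 to 0.348. The cause of these changes was not tested. The 3 globin ratios kept their direction under every alternative run, and with 1 library left out their log2 differences ran from 0.02 to 0.231 (embryonic to adult), 0.193 to 0.48 (alpha cluster) and 0.2 to 0.497 (beta cluster). Their permutation tests allow no p below 0.1, and paired sign flips none below 0.25, so their p-values say nothing on stability. With 1 library left out and no block, Hba-x ran from 0.071 to 0.724, Hbb-bh1 from 0.094 to 0.625, Hba-a2 from 0.134 to 0.899, Hbb-bs from -0.682 to -0.145 and Hbb-bt from -0.813 to -0.04. No group of 3 libraries was tested for outlying values.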
